A study of Homo sapiens with 14 samples.

Results

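The genes described here encode the HLA class II molecules and the proteins they depend on: CIITA, HLA-DRA, HLA-DRB1, HLA-DQA1, HLA-DQB1, HLA-DPA1, HLA-DPB1, HLA-DMA, HLA-DMB and CD74. Accessible regions (peaks) were counted as theirs when they overlapped the gene body or the 20 kb on either side of it in GENCODE 44. This took 40 of the 72802 reference peaks of MM.1S and 45 of the 79969 reference peaks of RPMI8226, for 10 of 20007 protein-coding genes. Both are established human multiple myeloma (MM) cell lines, derived from malignant plasma cells. Chromatin accessibility was profiled by Omni-ATAC, in which a transposase cuts and tags open chromatin. The MM cells were grown in monoculture (MONO), in an upper transwell above HS5 bone marrow stromal cells (TSW), or in the lower chamber in contact with the HS5 cells (CO). MM.1S had 3 MONO, 3 TSW and 3 CO libraries, and RPMI8226 had 1 MONO, 2 TSW and 2 CO libraries. Per the study's methods the MM cells were sorted away from HS5 cells as CD38+CD90- cells. HS5 is a single immortalised stromal line, and the labels name no drug or genetic change for any of the groups.

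The deposited data were 1 list of reference peaks per line. Each peak carries 1 whole number, read here as its support, that is, the number of libraries of the line in which the peak was called. Support ran from 3 to 9 in MM.1S and from 3 to 5 in RPMI8226. Conditions were pooled in these lists and no reads are given, so accessibility in CO, TSW and MONO was not compared, the peak lists themselves give no depth, and no difference between the lines has a replicate check. Of the MM.1S peaks near the class II genes, 33 of 40 (82.5%) had a support above 6 and so must include a MONO library, against 72.3% of all MM.1S peaks. In RPMI8226, 31 of 45 (68.9%) were called in every library, MONO included, against 64.1% of all RPMI8226 peaks. Among all RPMI8226 promoter peaks the share was 74.2%. The other 7 and 14 peaks near the class II genes could come from stroma-exposed libraries alone. As a check of the labels, 10 of 10 plasma cell genes had a promoter peak in each line, among them CD38, PRDM1 and IRF4. Of 10 stromal genes, 7 in MM.1S and 4 in RPMI8226 had a promoter peak, and COL3A1, LUM and THY1 (the gene of CD90) had none in either line. Over all protein-coding genes the share was 76.9% in MM.1S and 71.9% in RPMI8226. PDGFRB, FN1, SPARC and TWIST1 had a start site peak in 9 of 9 MM.1S libraries, MONO included, and FN1 had one in 5 of 5 RPMI8226 libraries. The study's methods mention a low level of HS5 cells in the sorted CO cells, and the MONO cells were grown without HS5 cells. The part of HS5 cells in stromal gene peaks that could lack a MONO library was not tested.

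HLA class II molecules present peptides from endocytosed proteins to CD4+ T cells. Their alpha and beta chains pair in the endoplasmic reticulum with the invariant chain CD74, and HLA-DM later exchanges the remnant of CD74 for a peptide. CIITA is the coactivator that governs transcription of all these genes. It does not bind DNA itself but docks on RFX, CREB and NF-Y, which occupy the X and Y boxes a short way upstream of class II start sites. CIITA has several promoters: pI is known from dendritic cells and macrophages, pIII from B cells, and pIV from cells treated with interferon gamma. Normal plasma cells silence CIITA, and the repressor encoded by PRDM1 takes part in this.

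The promoters that carry a recognisable X and Y box are shown first, because this module is the known docking site of CIITA and its partners. Sequences are from RefSeq promoters of GRCh38.p14, written 5′ to 3′, with the X and Y words in capitals. The pattern was GNNACNGA followed 18 to 30 bases later by ATTGG, on either strand, and it was chosen after the promoter sequences had been read.
HLA-DRB1, chr6:32589860-32589956 (minus strand): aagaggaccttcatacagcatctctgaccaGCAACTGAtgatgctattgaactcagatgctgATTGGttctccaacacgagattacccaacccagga
HLA-DQA1, chr6:32637275-32637372 (plus strand): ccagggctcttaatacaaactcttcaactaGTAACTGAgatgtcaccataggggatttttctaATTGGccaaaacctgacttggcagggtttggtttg
HLA-DQB1, chr6:32666711-32666807 (minus strand): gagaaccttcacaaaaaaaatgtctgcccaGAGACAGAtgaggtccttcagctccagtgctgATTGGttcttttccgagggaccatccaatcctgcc
HLA-DMA, chr6:32953142-32953239 (minus strand): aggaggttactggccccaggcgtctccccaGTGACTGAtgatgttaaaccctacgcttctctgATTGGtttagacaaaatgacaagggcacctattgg
The pattern was present in 4 of the 9 promoters that the RefSeq table holds for 8 of the 10 genes, and in 0.578% of all 35116 promoters of that length. Because the pattern was fitted to these promoters, this contrast is not a result about them. The planned, stricter form given in the next paragraph was present in 1 of the 9 and in 0.333% of all promoters. The Y box word CCAAT, read on either strand, was present in 7 of the 9 promoters and in 34.6% of all promoters. The X box word GCAAC was present in 3 of the 9 and in 33.6% of all promoters, so it was at the background share. The HLA-DRB1, HLA-DQB1 and HLA-DMA stretches lay wholly inside a peak of both lines. The HLA-DQA1 stretch was the exception, with 98 of its 98 bases inside an RPMI8226 peak and 0 inside an MM.1S peak.

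A stricter form of the module, GCAAC followed 24 to 32 bases later by ATTGG on either strand, was sought along whole peaks. It was found in 3 of the 40 MM.1S peaks and in 3 of the 45 RPMI8226 peaks, against 0.494% and 0.366% of all peaks of the lines, whose widths differ. One match was the HLA-DRB1 promoter shown above. Another began 104 bp before the HLA-DRA start site and lay in an MM.1S peak only. The matches that lie well upstream of a canonical start site are shown because each marks a peak described below. GCAAC and ATTGG are in capitals.
Upstream of HLA-DRA, chr6:32437585-32437683 (minus strand): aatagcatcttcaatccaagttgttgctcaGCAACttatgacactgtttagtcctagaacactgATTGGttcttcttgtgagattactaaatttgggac
Upstream of HLA-DQB1, chr6:32668466-32668561 (plus strand): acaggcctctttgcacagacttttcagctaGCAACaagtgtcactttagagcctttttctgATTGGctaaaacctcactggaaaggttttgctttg
The HLA-DRA element lay in a peak of both lines and began 2272 bp before the start site. The HLA-DQB1 element began 1874 bp before its canonical start site, a little upstream of another annotated start of that gene, and lay in a peak of RPMI8226 only. A match describes the letters of the reference and is not evidence of a bound factor.

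All 10 genes had a promoter peak, meaning a peak within 2500 bp of any annotated start site, in both lines. The background was high, with 76.9% of protein-coding genes in MM.1S and 71.9% in RPMI8226 having such a peak. When the canonical start site itself had to lie inside a peak, 8 of the 10 genes qualified in each line, against 62.1% and 53.9% of all genes. MM.1S lacked a peak over the starts of HLA-DQA1 and HLA-DPA1, and RPMI8226 lacked one over the starts of HLA-DRA and HLA-DPA1. The start of HLA-DRA was thus covered in MM.1S and not in RPMI8226, as for 10.1% of all genes. The start of HLA-DQA1 was covered in RPMI8226 and not in MM.1S, as for 1.88% of all genes. The other 7 covered starts, those of CIITA, HLA-DRB1, HLA-DQB1, HLA-DPB1, HLA-DMA, HLA-DMB and CD74, were covered in both lines.

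**Figure D1:**
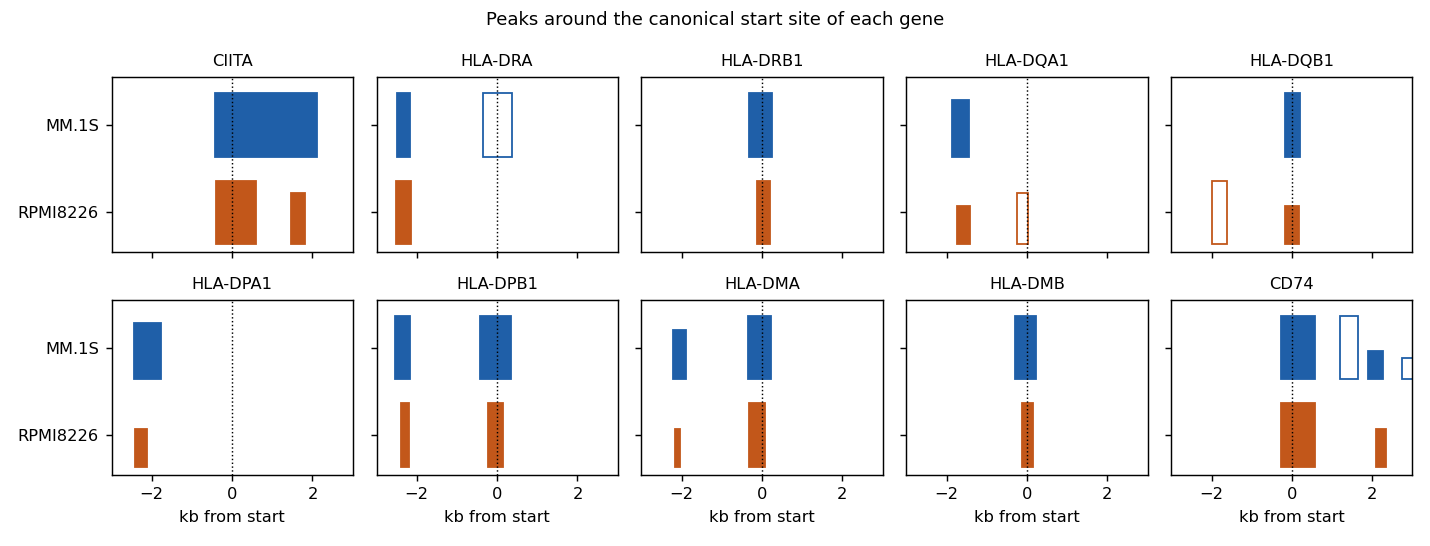
Peaks around the canonical start site of each gene, with the distance from the start in kb on the x axis, drawn in the direction of transcription. Box width is the peak, box height is the share of the line's libraries in which it was called, and open boxes overlap no peak of the other line. The open box over the HLA-DRA start is in MM.1S only and the open box over the HLA-DQA1 start is in RPMI8226 only.

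At CIITA on chromosome 16 (ENSG00000179583), the region of pIII and pIV was accessible in both lines, in a different shape. MM.1S had a single peak of 2533 bp, chr16:10876787-10879319, called in 9 of 9 libraries, that spanned both start sites. It was wider than 99.9% of all MM.1S peaks. RPMI8226 had a peak of 1003 bp over pIII, chr16:10876806-10877808, called in 5 of 5 libraries, and a separate peak of 336 bp over pIV, chr16:10878679-10879014, called in 4 of 5 libraries. The RPMI8226 peaks lay wholly inside the MM.1S peak, were 870 bp apart and covered 1339 bp of it. How boundaries from different libraries were joined is not stated, so a wider accessible region and a different joining of peaks cannot be told apart.

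GENCODE does not name the CIITA promoters. Its start sites, merged within 500 bp, formed 9 groups, and pIII was taken as the group of the canonical start, pIV as the group 1767 bp downstream and pI as the group at the 5′ end, at -10980 bp. Only the pIII and pIV groups had a peak within 500 bp, in both lines. The nearest peak to pI was 2133 bp away in MM.1S and 2143 bp away in RPMI8226. The 6 further groups, inside the gene body, had no peak within 500 bp in either line. A word for interferon regulatory factors, GAAA and GAAA with any 2 bases between, began 115 bp before the canonical start inside the pIII peaks. The same word began 1700 and 1706 bp after the canonical start, close to pIV, and an E box, CACGTG, began at 1635 bp. Both words near pIV lay inside the wide MM.1S peak and inside the separate RPMI8226 peak. These words were sought along whole peaks, of up to 2533 bp. In the central 200 bp, the window for which shares over all peaks were counted, the separate RPMI8226 pIV peak held both words, and the wide MM.1S peak and the RPMI8226 pIII peak held neither. In that window the interferon regulatory factor word was present in 2.5% of the MM.1S and 6.67% of the RPMI8226 peaks near the class II genes, against 6.84% and 6.27% of all peaks. CACGTG was present in 5.0% and 11.1%, against 4.09% and 3.71%.

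**Figure D2:**
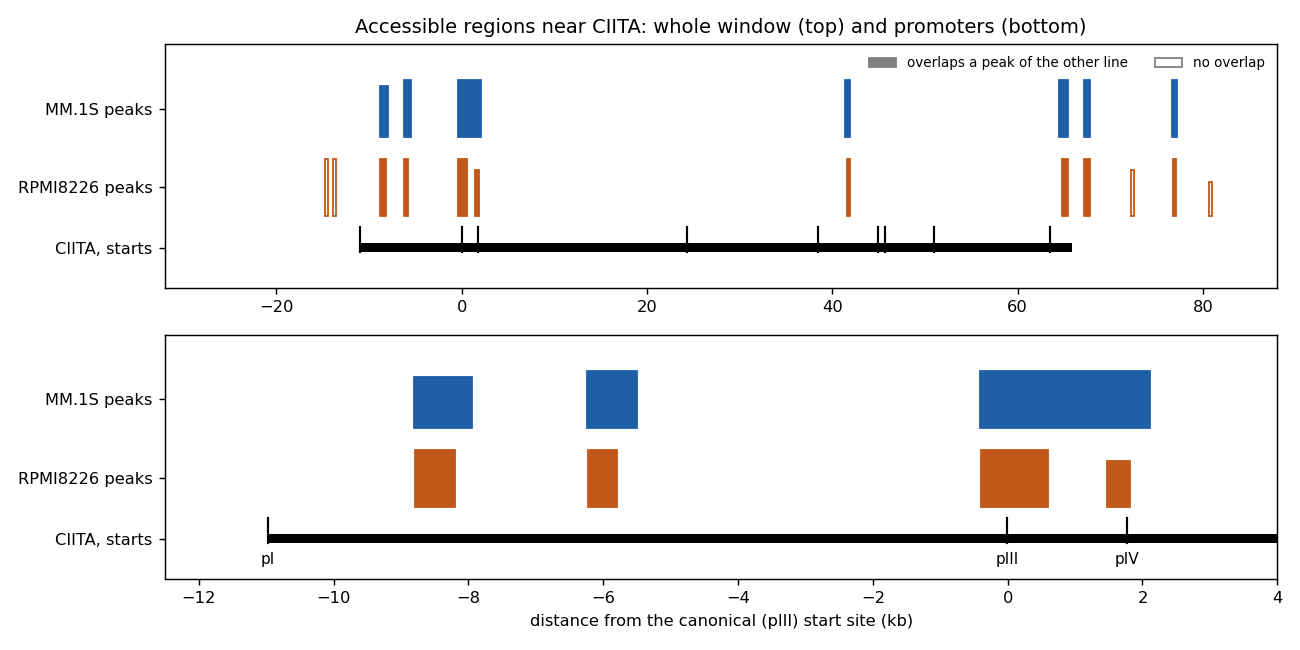
Peaks near CIITA by distance in kb from the canonical start site, for the whole window (top, narrow boxes drawn at least 0.35 kb wide) and the promoters (bottom, to scale). Box height is the share of libraries with the peak, open boxes overlap no peak of the other line, and black ticks are start sites. A single MM.1S box spans pIII and pIV where RPMI8226 has separate boxes, and no box touches pI.

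With promoter peaks included, the CIITA window held 12 peaks in RPMI8226 and 7 in MM.1S. The number exceeded that of 95% of protein-coding genes in RPMI8226 and of 80.1% in MM.1S, not scaled to window length. The CIITA window is 117 kb long. Per 100 kb it held 10.3 peaks in RPMI8226 and 5.99 in MM.1S, in MM.1S the lowest of the 10 genes. The medians over all protein-coding genes were 4.45 and 4.4. Distal peaks in the CIITA window numbered 7 in RPMI8226 and 3 in MM.1S. All 7 MM.1S peaks overlapped a RPMI8226 peak. The RPMI8226 list added a pair of peaks upstream of the gene, at 14565 bp (chr16:10862452-10862823) and 13740 bp (chr16:10863310-10863615) before the canonical start, each called in 5 of 5 libraries. It also added peaks 72350 and 80829 bp downstream of the start, inside the neighbouring gene CLEC16A, called in 4 and 3 of 5 libraries. Both lines shared intronic peaks between pI and pIII. The one nearest pIII, chr16:10870962-10871699 in MM.1S (9 of 9) and chr16:10870974-10871408 in RPMI8226 (5 of 5), held the AP-1 word TGANTCA in its central 200 bp in both lines, as did 9.97% of all MM.1S and 17.6% of all RPMI8226 peaks. A shared intronic peak, chr16:10918600-10919060 in MM.1S and 41628 bp downstream of the start there, was also called in every library of each line. The peak at the 3′ end of CIITA lay in the promoter of DEXI and CLEC16A as well.

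HLA-DRA encodes the alpha chain that pairs with every HLA-DR beta chain. MM.1S had a peak of 716 bp over its start site, chr6:32439539-32440254, called in 9 of 9 libraries. RPMI8226 had no reference peak there in its list of peaks called in at least 3 libraries, and its nearest peak was 2148 bp from the start. That nearest peak was the upstream element with the X and Y words shown above, chr6:32437359-32437739, called in 5 of 5 RPMI8226 libraries, and its MM.1S counterpart, chr6:32437397-32437723, was called in 9 of 9. A peak 22889 bp downstream, in the pseudogene HLA-DRB9, was likewise called in every library of both lines. RPMI8226 alone had a peak 11684 bp upstream, called in 3 of 5 libraries. The absence of a reference peak is not a measured absence of accessibility, since a peak called in fewer than 3 RPMI8226 libraries would not be listed.

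HLA-DRB1, the beta chain gene, had a start site peak in every library of both lines, 565 bp wide in MM.1S (chr6:32589612-32590176) and 316 bp wide in RPMI8226 (chr6:32589659-32589974). In MM.1S it had 2 further peaks that overlapped no RPMI8226 peak. One was intronic, chr6:32583781-32584432, called in 8 of 9 libraries, and the other lay in the pseudogene HLA-DRB6, chr6:32557745-32557936, called in 6 of 9. RPMI8226 alone had a peak 14231 bp upstream, called in 3 of 5 libraries.

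HLA-DQA1 showed the opposite contrast to HLA-DRA. At this gene, which encodes the DQ alpha chain, RPMI8226 had a peak of 263 bp over the canonical start, chr6:32637159-32637421, called in 4 of 5 libraries, and MM.1S had none, its nearest peak being 1442 bp away. That peak, chr6:32635547-32635964, was called in 8 of 9 MM.1S libraries, and it had an RPMI8226 counterpart called in 3 of 5. At HLA-DQB1, the DQ beta chain gene, both lines had a peak over the start, called in 9 of 9 MM.1S libraries (chr6:32666445-32666835) and in 3 of 5 RPMI8226 libraries (chr6:32666486-32666824). RPMI8226 alone had the peak 1805 bp upstream that holds the second element shown above, chr6:32668269-32668656, called in 5 of 5 libraries. That peak covers the most 5′ annotated start of HLA-DQB1, at position 32668383, so in RPMI8226 the peak over this other start was called in more libraries than the peak over the canonical start.

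The reference sequence was examined for repeated stretches at these sites, because the study left out reads that map to several places. Within 500 bp of the HLA-DRA start, 0% of 50-base words occurred more than once in the primary chromosomes. The share was 3.26% at HLA-DQA1, 0% at HLA-DQB1 and 17.0% at HLA-DRB1. With the alternative contigs of the 455-sequence reference counted too, it was 100% at HLA-DRA, 13.1% at HLA-DQA1, 7.26% at HLA-DQB1 and 22.4% at HLA-DRB1. It was also 100% at HLA-DPA1, HLA-DPB1, HLA-DMA and HLA-DMB. Of these, all but HLA-DPA1 had a start site peak in every library of both lines. Which contigs the authors aligned to is not stated, and 0 peaks of either list lay on other contigs. The HLA genes also differ in sequence between people and between cell lines. The part of either in the HLA-DRA and HLA-DQA1 contrasts was not tested. Among the peaks near the class II genes, and counting the primary chromosomes only, the HLA-DRB1 start site peak had the most repeated sequence, 25.2% in MM.1S and 31.1% in RPMI8226.

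**Figure D3:**
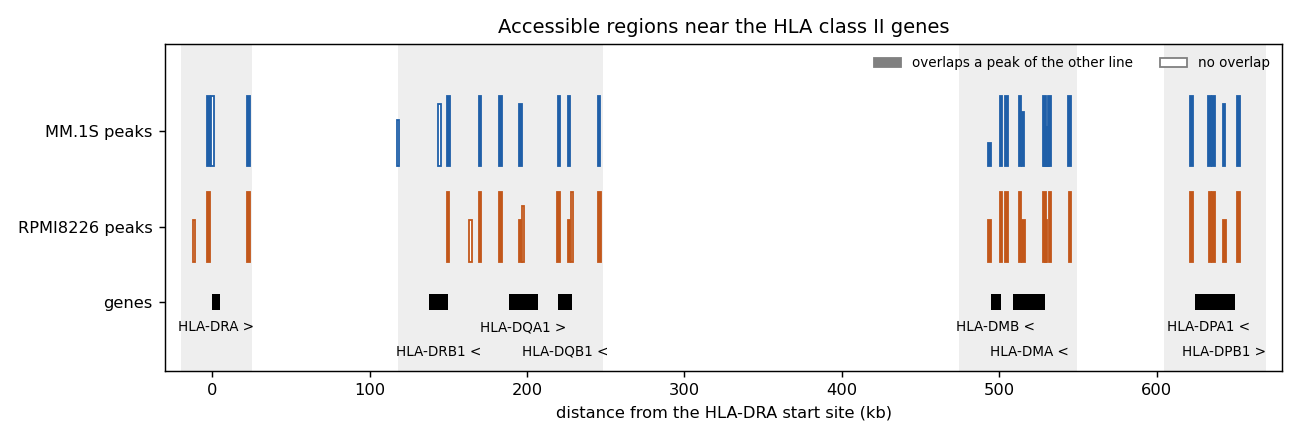
Peaks across the class II region by distance in kb from the HLA-DRA start site, with box height showing the share of libraries and boxes drawn at least 1.6 kb wide. Grey bands are the gene windows, outside which peaks were not counted and are not drawn, arrows give gene direction, and open boxes overlap no peak of the other line. Filled boxes predominate in every window, apart from that of HLA-DRB1 in MM.1S, where 2 of 4 boxes are filled. The open boxes lie in the windows of HLA-DRA, HLA-DRB1, HLA-DQA1, HLA-DQB1 and HLA-DMA.

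The HLA-DP genes, which lie head to head, had 5 shared peaks in each line. HLA-DPB1, the beta chain gene, had a start site peak of 759 bp in MM.1S (chr6:33075570-33076328) and of 359 bp in RPMI8226 (chr6:33075775-33076133), called in every library. The canonical start of HLA-DPA1, the alpha chain gene, lay in no peak of either line. Its other RefSeq promoter lies within the gene body next to HLA-DPB1, and a peak called in 9 of 9 and 5 of 5 libraries overlapped it, at chr6:33073448-33073825 in MM.1S and chr6:33073611-33073805 in RPMI8226. The upstream peak of HLA-DPA1, 2102 bp before the canonical start in MM.1S, was called in 8 of 9 MM.1S and 3 of 5 RPMI8226 libraries.

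HLA-DMA and HLA-DMB encode the peptide exchange factor. Their starts were covered in every library of both lines, by peaks of 577 bp in MM.1S and 406 bp in RPMI8226 at HLA-DMA, and of 529 bp and 294 bp at HLA-DMB. A distal peak between the genes, 3384 bp upstream of HLA-DMB in MM.1S, was also called in all libraries of each line. HLA-DMA had the largest number of peaks of the HLA genes, 10 in MM.1S and 9 in RPMI8226. Its longest GENCODE transcripts reach the neighbouring gene BRD2, and the peaks there lay in the promoters of both genes.

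CD74, the invariant chain gene on chromosome 5, had the start site peaks most alike in width, 846 bp in MM.1S (chr5:150412347-150413192) and 861 bp in RPMI8226 (chr5:150412325-150413185), both called in every library. Inside the gene, MM.1S alone had a peak 1426 bp after the start, chr5:150411263-150411706, called in 9 of 9 libraries, and another 2887 bp after it, called in 3 of 9. RPMI8226 alone had a peak in TCOF1, 18580 bp downstream of the CD74 start, and another 16813 bp upstream of it, each called in 5 of 5 libraries. CD74 thus had 6 peaks in each line, of which 4 were shared.

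Over all 10 genes, 34 of 40 MM.1S peaks were shared with RPMI8226, or 85.0% (95% Wilson interval 70.9 to 92.9), against 64.6% of the whole list. In the other direction 35 of 45 were shared, or 77.8% (63.7 to 87.5), against 62.0%. The intervals cover counting error only, and peaks of 1 locus are not independent. Promoter peaks made up 65.0% (49.5 to 77.9) of the MM.1S and 55.6% (41.2 to 69.1) of the RPMI8226 peaks, against 39.2% and 36.0% of all peaks. The windows were drawn around genes and so hold start sites by design. This contrast with all peaks is therefore not a result about these genes. Peaks called in every library made up 67.5% (52.0 to 79.9) and 68.9% (54.3 to 80.5), against 52.0% and 64.1%. Among promoter peaks of the 10 genes alone, 65.2% in MM.1S and 63.6% in RPMI8226 were called in every library. Of all promoter peaks, 67.5% and 74.2% were, so the support of these promoters was not above that background. Of the same promoter peaks, 82.6% and 90.9% were shared, against 71.8% and 76.6% of all promoter peaks. The median number of peaks per gene was 5 in each line, with 4 over all protein-coding genes. Scaled to window length, the median was 8.69 peaks per 100 kb in MM.1S, against 4.4 over all genes, and 9.75 in RPMI8226, against 4.45. Windows other than that of CIITA were 45.2 to 60.5 kb long, and the background was not matched for window length. This contrast is therefore not a result about these genes. The same 5 peaks also count for both HLA-DPA1 and HLA-DPB1 in these medians. The windows of neighbouring HLA genes overlap, and each peak was counted once in the totals.

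**Figure D4:**
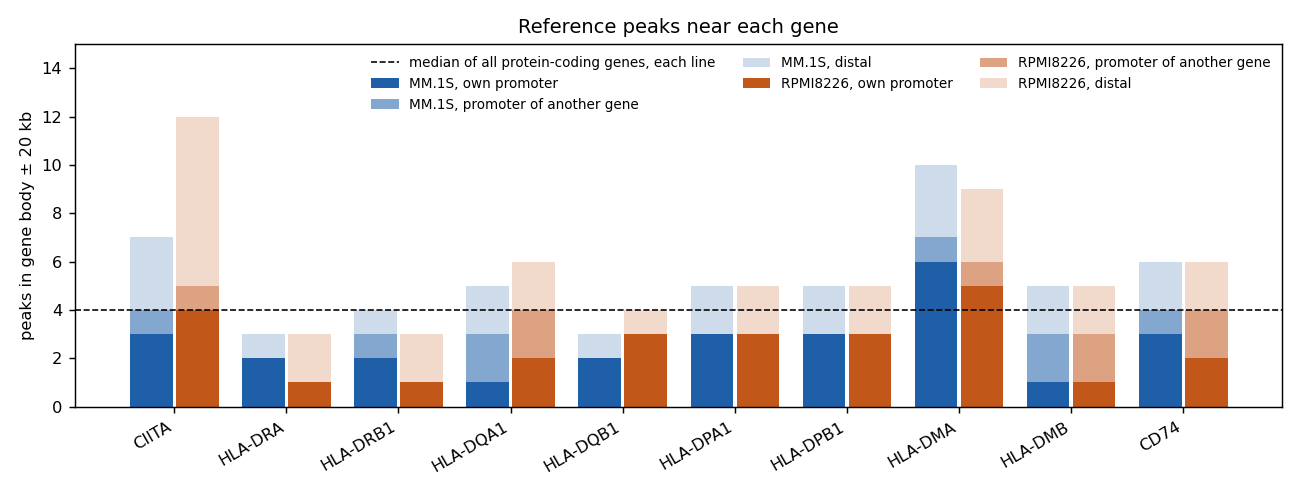
Number of reference peaks in the gene body and 20 kb either side of each gene, for MM.1S (blue) and RPMI8226 (orange), stacked by class, with the median of all protein-coding genes as a dashed line at 4. Neighbouring genes can share a peak. CIITA has 7 MM.1S and 12 RPMI8226 peaks, HLA-DMA 10 and 9, and each other gene 3 to 6.

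The peaks that overlapped no peak of the other line were spread over the windows of CIITA, CD74, HLA-DRA, HLA-DRB1, HLA-DQA1, HLA-DQB1 and HLA-DMA. MM.1S had 6, of which the HLA-DRA start site peak and the CD74 intronic peak were called in every library. RPMI8226 had 10, of which 5 were called in every library: the pair upstream of CIITA, the peak upstream of HLA-DQB1 and the pair in the flanks of CD74. MM.1S peaks were wider. Among 33 pairs of peaks that matched 1 to 1, 29 (87.9%) were wider in MM.1S, with medians of 565 and 339 bp. This was near the 81.6% of all 44631 such pairs, with medians of 586 and 420 bp.

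Distal peaks were mostly shared in MM.1S, 13 of 14 (92.9%, interval 68.5 to 98.7) against 60.0% of all distal MM.1S peaks. In RPMI8226, 13 of 20 (65.0%, interval 43.3 to 81.9) were shared, against 53.7%. Between HLA-DRB1 and HLA-DQA1, peaks called in every library of both lines lay 20238 bp upstream of HLA-DRB1 (chr6:32609777-32610396 in MM.1S) and 14451 bp upstream of HLA-DQA1 (chr6:32622543-32623367 in MM.1S and chr6:32622565-32623349 in RPMI8226). The second was 825 bp wide in MM.1S and 785 bp wide in RPMI8226. It holds a word of the insulator protein CTCF (CC, any 3 bases, AG, any base, then GGGC), shown in capitals in the hg38 sequence.
HLA-DRB1 to HLA-DQA1 interval, chr6:32622582-32622682 (plus strand): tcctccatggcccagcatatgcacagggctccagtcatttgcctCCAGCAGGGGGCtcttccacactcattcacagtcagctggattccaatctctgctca
The word was sought along the whole peak, and its share over all whole peaks was not counted, so its presence here has no background. The peak at the 3′ end of CIITA also held it in both lines. In this interval the word lay outside the central 200 bp of the peak. In that window it was present in 5.03% of all MM.1S and 4.14% of all RPMI8226 peaks and in 0 of the peaks near the class II genes. A peak 19107 bp upstream of HLA-DQB1 was likewise called in every library of both lines.

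Of 18 other genes of the class II pathway, 14 had a promoter peak in each line (77.8%), close to the backgrounds of 76.9% and 71.9%. HLA-DOA, HLA-DQA2, HLA-DQB2 and HLA-DRB5 had none in either line. The factors that bind the X and Y boxes, RFX5, RFXAP, RFXANK, CREB1, NFYA, NFYB and NFYC, had a peak over the start site in all libraries of both lines, as did the processing genes IFI30, CTSS and LGMN. At any support, 12 of the 18 starts in MM.1S (66.7%) and 10 in RPMI8226 (55.6%) lay in a peak, near the 62.1% and 53.9% of all genes. The starts of MARCHF1 and MARCHF8 lay in no peak of either line. HLA-DOB, a chain of the HLA-DM inhibitor HLA-DO, had a start site peak of 1293 bp in 8 of 9 MM.1S libraries, and its start lay in no RPMI8226 peak. The start of CTSL, a lysosomal protease gene, was likewise covered in 8 of 9 MM.1S libraries and in no RPMI8226 peak. CTSL had a promoter peak in all 5 RPMI8226 libraries, as did HLA-DOB.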

How the data were processed

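Omni-ATAC libraries were grouped by line and culture condition from their titles. Per the study's methods and the submitters' processing notes, the authors aligned paired reads to hg38 with Bowtie2, removed reads mapping to several places, called peaks with MACS3 and kept peaks present in at least 3 libraries of a line. The deposited lists give position and 1 whole number, in a unit other than reads or a normalized signal, read as the count of libraries with the peak. Versions and thresholds, and whether starts count from 0, are not given in the sources used here. Starts were taken as counted from 0 and printed plus 1, an uncertainty of 1 bp.

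Genes came from GENCODE 44 (the study used RefSeq), and 0 peaks lay beyond a chromosome end of the hg38 reference. Promoter peaks lay within 2500 bp of a start site, and shared peaks overlapped the other list by at least 1 bp. Shares carry 95% Wilson intervals. No test was run, since each line has 1 list without reads. The lists give no depth, and the library totals in the study's supplement entered no value here. By those totals of informative read pairs, an MM.1S MONO library was the least deep of all libraries. Every RPMI8226 library was less deep than each remaining MM.1S library. The part of depth in support, in peak widths and in peaks missing from a list was not tested. Repeats were counted as 50-base words, and words were sought on both strands. Scripts ran in Python 3.11.15 with numpy 2.4.6, pandas 2.3.3 and scipy 1.17.1, and the overlap, interval and word counts were tested on simulated data.

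The genes, lists and rules were chosen with earlier results of these data known. Genes named were the 10 genes and fixed lists of the class II and class I pathways, CIITA regulators and cell type markers. Peaks named were promoter peaks, peaks at CIITA start sites, the widest near each gene and distal peaks called in every library, and the remaining peaks named, those listed in 1 line only, were chosen after their values were seen. Alternatives varied the window, the promoter distance, the overlap, the support and the transcripts.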

Additional observations from a re-analysis of the deposited data

How the results depend on the processing

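Of 42 alternative values, 33 stayed within the counting interval of the share, or within 1.5 times the count, and 9 moved further. With windows of 50 kb, the MM.1S peaks numbered 64. With windows of 5 kb, the RPMI8226 promoter share was 69.7% and the shared part 87.9%. Promoters of 1000 bp gave promoter shares of 47.5% in MM.1S and 40.0% in RPMI8226, and promoters of 5000 bp gave 85.0% and 77.8%. When an overlap had to cover 50% of both peaks, 65.0% of MM.1S and 57.8% of RPMI8226 peaks were shared. The number of genes with a promoter peak was 10, or 9 when promoters were 1000 bp, when the peak had to be called in every library, or when any start site had to lie inside a peak, an alternative chosen after seeing the data. No library could be left out and no paired analysis was possible because the lists pool the libraries. The lists give no depth, and a region missing from one may have been called in fewer than its minimum of 3 libraries.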

Other observations

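Genes of the class I pathway, which present peptides from inside the cell and are governed by NLRC5, a relative of CIITA, gave similar shares. Their windows held 53 peaks in MM.1S and 62 in RPMI8226, of which 84.9% and 79.0% overlapped a peak of the other line. Promoter peaks made up 69.8% and 66.1% of the peaks in these windows. Of 13 genes, 12 had a peak over the canonical start in every library of each line, and HLA-G had none in either line. At any support, 62.1% of protein-coding genes in MM.1S and 53.9% in RPMI8226 had such a peak.

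All 6 genes listed as regulators of CIITA had a promoter peak called in every library of both lines. At any support, 76.9% of protein-coding genes in MM.1S and 71.9% in RPMI8226 had a promoter peak. The share with one in every library was not counted. The start of PRDM1, the plasma cell repressor of CIITA, lay in a peak of 620 bp in MM.1S and 391 bp in RPMI8226. The start of IRF4, a plasma cell transcription factor, lay in a peak of 1387 bp in MM.1S and 901 bp in RPMI8226. The start of SPI1, a B cell and myeloid factor, lay in a peak of 965 bp in MM.1S and 384 bp in RPMI8226. ZBTB32 was the only one of the 6 whose canonical start lay in no peak of either line. Of 8 B cell genes, 7 in MM.1S (87.5%) and 5 in RPMI8226 (62.5%) had a promoter peak, against 76.9% and 71.9% of all protein-coding genes, and the start of PAX5 lay in an MM.1S peak and in no RPMI8226 peak.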
